A study of Homo sapiens with 16 samples.

Results

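UAP1L1 and 9 further genes of the hexosamine pathway were followed in hPSC-CMs, cardiomyocytes made from human pluripotent stem cells. The 10 genes (UAP1L1, UAP1, GFPT1, GFPT2, GNPNAT1, PGM3, GNPDA1, GNPDA2, NAGK and OGT) were taken by name from the 43388 genes in the deposited table, and all 10 were among the 16122 that averaged 1 TPM or more and were tested. UAP1L1 was chosen by its higher level in both media with 5 mM glucose, so its own levels against RPMI/B27 are described without a test. TPM is a read count divided by gene length and scaled to the same total in each library, so levels of different genes can be set side by side. The cells were made from WTC11, an established line of human induced pluripotent stem cells, by the GiWi protocol, in which Wnt signalling is first switched on and then blocked. The 16 libraries fell into 4 groups of 4: Day 16 RPMI/B27, which is the starting population, and 3 media used from then on, giving the groups Day 30 HPLM/B27, Day 30 RPMI/B27 and, with glucose lowered, Day 30 RPMI_glcM/B27. RPMI/B27 is the standard medium with the glucose of RPMI, RPMI_glcM/B27 is the same medium with 5 mM glucose, and HPLM/B27 is built on human plasma-like medium, whose glucose RPMI_glcM/B27 matches. All groups had the B27 supplement and carried no genetic change or drug. Each library was a well of a single differentiation of a single cell line, so the SD and the p-values describe the spread between wells. The description deposited with the series counts 3 wells per medium while the labels give 4, and all 4 were used.

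The hexosamine pathway turns fructose-6-phosphate from glucose, together with glutamine, into UDP-N-acetylglucosamine (UDP-GlcNAc), the donor for N-glycans, hyaluronan and the O-GlcNAc mark on nuclear and cytoplasmic proteins. GFPT1 and GFPT2 make glucosamine-6-phosphate, the rate-limiting step, GNPNAT1 acetylates it, PGM3 moves the phosphate, and UAP1 joins the sugar to UTP, with UAP1L1 as a less studied relative of UAP1. GNPDA1 and GNPDA2 run the first step backwards, NAGK returns salvaged N-acetylglucosamine to the pathway, and OGT spends UDP-GlcNAc on proteins, a modification studied in the heart in diabetes and hypertrophy.

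A library held between 7744768 and 16183655 reads on genes, recovered from the TPM as whole numbers. In Day 30 RPMI/B27, replicates 3 and 4 stood apart: the median-of-ratios factor, which measures how high the typical gene lies in a library, was 0.786 and 0.727 there against 1.16 and 1.19 in replicates 1 and 2. RNR1, a mitochondrial ribosomal RNA, stood at 14387 and 29276 TPM in replicates 3 and 4 and at 1545 and 619 TPM in replicates 1 and 2. The median gene of those tested was lower at Day 30 than at Day 16 by 0.29 (log2) in HPLM/B27, 0.28 in RPMI/B27 and 0.22 in RPMI_glcM/B27. Fold changes are therefore given for the deposited TPM and, as "rescaled", for TPM divided by these factors, which brings the median of all genes to within 0.0148 of 0 in every comparison.

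UAP1L1 lies at chr9:137077517-137084538 on the forward strand (GRCh38) and had the widest gap between media of the 10 genes. It stood at 1.60, 1.38, 1.17 and 1.08 TPM in the Day 16 libraries and at 1.5, 1.81, 0.802 and 1.10 TPM in Day 30 RPMI/B27, and these groups overlapped. It stood at 5.66, 7.58, 5.83 and 5.41 TPM in RPMI_glcM/B27 and at 6.04, 7.77, 7.49 and 7.0 TPM in HPLM/B27. Each library with 5 mM glucose was above each library in RPMI/B27 of either day, with no overlap. In RPMI/B27 the mean was 1.31 ± 0.231 (SD, n = 4) TPM at Day 16 and 1.30 ± 0.441 (SD, n = 4) TPM at Day 30, against 6.12 ± 0.986 (SD, n = 4) TPM in RPMI_glcM/B27 and 7.07 ± 0.760 (SD, n = 4) TPM in HPLM/B27. The ratio of means to Day 30 RPMI/B27 was 4.70 in RPMI_glcM/B27 and 5.43 in HPLM/B27. In order of mean level HPLM/B27 came first and RPMI_glcM/B27 second, and these neighbours did not differ beyond their spread (limma on log2(TPM + 1), log2 fold change 0.19 ± 0.16 (SE), adjusted p = 0.935, and rescaled 0.25 ± 0.11, adjusted p = 0.294). The counts behind these levels were small, with 17 to 24 reads per library at Day 16, 22 to 39 in Day 30 RPMI/B27, 74 to 106 in RPMI_glcM/B27 and 114 to 154 in HPLM/B27. The gap stayed without replicates 3 and 4 of Day 30 RPMI/B27, since the kept libraries were at 1.5 and 1.81 TPM. In these bulk samples a change in the cells' makeup and a change in RNA per cell cannot be told apart.

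UAP1, the established UDP-GlcNAc pyrophosphorylase (chr1:162561531-162601240, forward strand), did not share this pattern. It stood at 10.8, 12.4, 12.3 and 12.4 TPM at Day 16, at 12.1, 12.7, 7.51 and 9.82 TPM in Day 30 RPMI/B27, at 10.1, 9.83, 10.6 and 8.09 TPM in RPMI_glcM/B27 and at 6.83, 9.13, 7.71 and 8.45 TPM in HPLM/B27. The HPLM/B27 libraries were all below the Day 16 libraries, and the log2 fold change was -0.52 ± 0.15 (SE; limma, adjusted p = 0.0179), but -0.20 ± 0.11 (adjusted p = 0.178) when rescaled, so this call depends on the scaling. The Day 30 groups overlapped for UAP1, and no difference between them passed the test. The ratio of UAP1L1 to UAP1, which does not depend on the scaling of a library, averaged 0.111 ± 0.0272 (SD, n = 4) in the starting cells and 0.121 ± 0.0155 (SD, n = 4) after 2 further weeks in RPMI/B27. With 5 mM glucose it averaged 0.638 ± 0.103 (SD, n = 4) in RPMI_glcM/B27 and 0.884 ± 0.0627 (SD, n = 4) in HPLM/B27. Between the media matched in glucose, the ratio was 0.884, 0.851, 0.971 and 0.828 in HPLM/B27 and 0.562, 0.770, 0.550 and 0.669 in RPMI_glcM/B27. All 4 HPLM/B27 libraries were above all 4 RPMI_glcM/B27 libraries, by 1.40-fold in the geometric mean (two-sided exact permutation test, p = 0.0286, the smallest that 4 against 4 can give, and adjusted p = 0.0464 over the 13 ratio tests made). UAP1L1 was on average higher and UAP1 lower in HPLM/B27 than in RPMI_glcM/B27, and neither passed the test alone.

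**Figure D1:**
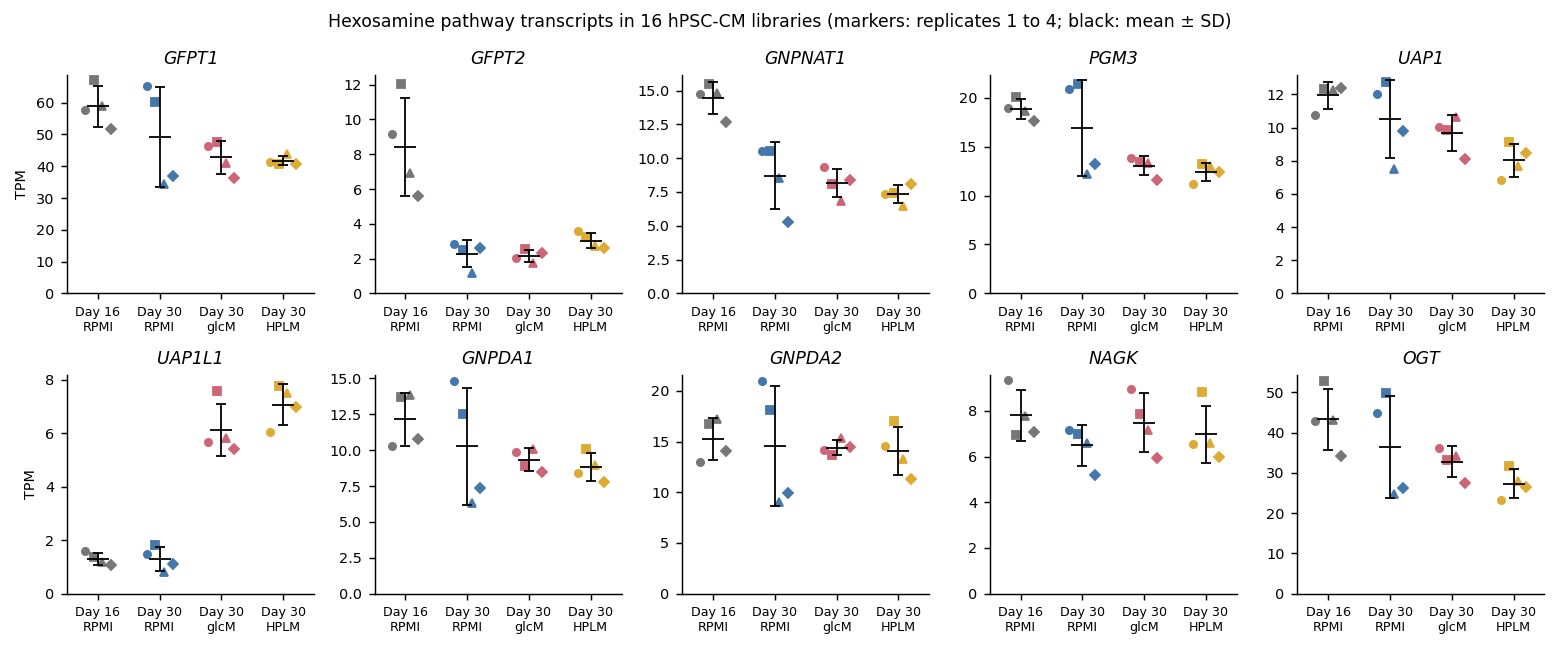
TPM of the 10 genes (vertical axes from 0) in the 4 libraries of each group, with replicate markers and the mean ± SD in black. UAP1L1 separates the 2 media with 5 mM glucose (5.41 to 7.77 TPM) from RPMI/B27 (0.802 to 1.81 TPM), and GFPT2 separates Day 16 from Day 30. Replicates 3 and 4 of Day 30 RPMI/B27 lie below replicates 1 and 2 for every gene shown, UAP1L1 included, except GFPT2.

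GFPT2, the amidotransferase of the first step with the more restricted expression (chr5:180300698-180353336, reverse strand), fell from Day 16 to Day 30 in each medium. It stood at 9.19, 12.0, 6.94 and 5.60 TPM at Day 16, at 2.85, 2.52, 1.17 and 2.61 TPM in Day 30 RPMI/B27, at 2.04, 2.57, 1.74 and 2.30 TPM in RPMI_glcM/B27 and at 3.59, 3.22, 2.71 and 2.63 TPM in HPLM/B27. No Day 30 library reached the lowest Day 16 library. The log2 fold change to Day 16 was -1.51 ± 0.22 (SE; limma, adjusted p = 0.000295) in RPMI/B27, -1.54 ± 0.22 (adjusted p = 0.00013) in RPMI_glcM/B27 and -1.18 ± 0.22 (adjusted p = 0.00105) in HPLM/B27, and these 3 comparisons share the Day 16 libraries. Rescaled, the changes were -1.23, -1.30 and -0.88, and all 3 passed the test. Between the Day 30 media GFPT2 was highest in HPLM/B27, where all 4 libraries were above all 4 of RPMI_glcM/B27, but the log2 difference of 0.35 ± 0.22 did not pass (adjusted p = 0.868).

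GFPT1, the widely expressed amidotransferase (chr2:69319780-69387227, reverse strand), was the most abundant of the 10 transcripts in each group. It stood at 57.6, 67.2, 58.9 and 51.7 TPM at Day 16, at 65.1, 60.3, 34.5 and 36.9 TPM in Day 30 RPMI/B27, at 46.5, 47.5, 40.9 and 36.4 TPM in RPMI_glcM/B27 and at 41.5, 40.8, 43.7 and 40.8 TPM in HPLM/B27. The low values of Day 30 RPMI/B27 are replicates 3 and 4. GFPT1 passed in no comparison of the limma fit described here, and the change to Day 16 of -0.48 ± 0.18 in HPLM/B27 was nearest (adjusted p = 0.0539). The ratio of GFPT2 to GFPT1 averaged 0.141 ± 0.0337 (SD, n = 4) in the Day 16 libraries. At Day 30 it averaged 0.0729 ± 0.0117 in HPLM/B27, 0.0509 ± 0.00972 in RPMI_glcM/B27 and 0.0476 ± 0.0160 in RPMI/B27 (SD, n = 4 each). It was lower in each Day 30 group than at Day 16 without overlap (exact permutation test, p = 0.0286 in all 3, adjusted p = 0.0464). The ratio in HPLM/B27 was 1.44-fold that in RPMI_glcM/B27, with an overlap of the groups (exact permutation test, p = 0.0571, adjusted p = 0.0825).

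GNPNAT1, the acetyltransferase of the second step (chr14:52775193-52791607, reverse strand), also fell from Day 16 to Day 30. It stood at 14.8, 15.5, 14.8 and 12.7 TPM at Day 16, at 10.5, 10.5, 8.55 and 5.26 TPM in Day 30 RPMI/B27, at 9.37, 8.06, 6.83 and 8.36 TPM in RPMI_glcM/B27 and at 7.34, 7.45, 6.44 and 8.07 TPM in HPLM/B27. All 12 Day 30 libraries were below all 4 Day 16 libraries. The log2 fold change was -0.71 ± 0.17 (SE; limma, adjusted p = 0.00973) in RPMI/B27, -0.76 ± 0.17 (adjusted p = 0.00475) in RPMI_glcM/B27 and -0.89 ± 0.17 (adjusted p = 0.00151) in HPLM/B27, and -0.40, -0.50 and -0.57 when rescaled, again past the test. Without replicates 3 and 4 of Day 30 RPMI/B27 the change in that medium was -0.42 (adjusted p = 0.0506), and with rescaling as well -0.39 (adjusted p = 0.0385).

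The promoters of GFPT2 and GNPNAT1 are shown because these were the members that fell in all 3 Day 30 groups. They are the 250 bases before the RefSeq start, 5′ to 3′ on the gene's strand (GRCh38.p14), with GC boxes (GGGCGG or its reverse complement CCGCCC, the core bound by factors of the SP family) in capitals.
GFPT2, chr5:180353337-180353586, reverse strand: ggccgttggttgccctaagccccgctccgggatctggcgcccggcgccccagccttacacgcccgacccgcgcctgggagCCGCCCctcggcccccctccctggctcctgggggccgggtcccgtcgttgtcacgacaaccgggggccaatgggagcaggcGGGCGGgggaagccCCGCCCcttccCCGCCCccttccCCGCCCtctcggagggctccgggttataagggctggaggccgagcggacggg
GNPNAT1, chr14:52791608-52791857, reverse strand: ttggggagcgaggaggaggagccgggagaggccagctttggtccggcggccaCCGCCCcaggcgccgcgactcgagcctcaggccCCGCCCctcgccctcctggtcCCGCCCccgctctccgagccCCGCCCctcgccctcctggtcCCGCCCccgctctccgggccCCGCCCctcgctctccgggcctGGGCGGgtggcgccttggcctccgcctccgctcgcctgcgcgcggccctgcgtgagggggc
The GFPT2 window holds 5 GC boxes and the GNPNAT1 window 7. Of the 10 genes, 9 had windows in the table used, 13 in all, and 11 of the 13 held a GC box, against 42.6% of all 35116 promoter windows of this length. UAP1L1 had no entry. CACGTG, an E-box of the kind bound by glucose-responsive and MYC-type factors, was in 1 of the 13 windows, that of GNPDA1, and in 6.34% of all windows. CCAAT or its reverse complement ATTGG was in 5 of the 13 and in 32.0% of all, and TGATGCAA (or TTGCATCA), an element of the amino acid response, was in 0 of the 13 and in 0.772% of all. These matches are descriptions of letters and were not tied to the levels.

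PGM3, the mutase of the third step (chr6:83148705-83193900, reverse strand), stood at 19.0, 20.0, 18.7 and 17.6 TPM at Day 16, at 20.9, 21.4, 12.2 and 13.2 TPM in Day 30 RPMI/B27, at 13.9, 13.4, 13.4 and 11.6 TPM in RPMI_glcM/B27 and at 11.1, 13.2, 13.0 and 12.4 TPM in HPLM/B27. The libraries with 5 mM glucose were all below those of Day 16, and the log2 fold change was -0.50 ± 0.16 (SE; limma, adjusted p = 0.0332) in RPMI_glcM/B27 and -0.56 ± 0.16 (adjusted p = 0.016) in HPLM/B27. In RPMI_glcM/B27 the call was lost when any of 6 of the 8 libraries was left out. Against Day 30 RPMI/B27 the difference of -0.31 ± 0.16 in RPMI_glcM/B27 (adjusted p = 0.376) and of -0.38 ± 0.16 in HPLM/B27 (adjusted p = 0.254) did not pass, and replicates 3 and 4 of RPMI/B27 overlapped with both groups. When rescaled, PGM3 stood at 18, 18, 15.5 and 18.1 in Day 30 RPMI/B27, at 13.1, 12.9, 13.7 and 13.2 in RPMI_glcM/B27 and at 12.5, 13.1, 13.7 and 13.8 in HPLM/B27, and all 4 RPMI/B27 libraries lay above the other 8. On that scale PGM3 was lower in both media with 5 mM glucose, by a log2 fold change of -0.37 ± 0.06 in each (adjusted p = 0.00148 and 0.00124). DOP1A and RWDD2A lie on the other strand across part of PGM3, and the strand setting of the counting is not given in the sources used here, so reads of these genes could be shared.

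OGT, the O-GlcNAc transferase (chrX:71533104-71575892, forward strand), stood at 42.9, 52.8, 43.1 and 34.3 TPM at Day 16, at 44.7, 49.8, 24.7 and 26.3 TPM in Day 30 RPMI/B27, at 36.2, 33.3, 34.3 and 27.4 TPM in RPMI_glcM/B27 and at 23.2, 31.7, 27.9 and 26.5 TPM in HPLM/B27. The HPLM/B27 libraries were all below those of Day 16 (log2 fold change -0.64 ± 0.20 (SE), limma, adjusted p = 0.03, and rescaled -0.29 ± 0.09, adjusted p = 0.0205), although the call on the deposited TPM was lost on leaving out any of 6 of the 8 libraries. Against Day 30 RPMI/B27 the difference in HPLM/B27 of -0.34 ± 0.20 did not pass (adjusted p = 0.467), whereas the rescaled one of -0.33 ± 0.09 did (adjusted p = 0.02), with overlapping groups.

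The remaining members did not pass the test in any comparison on either scale with all libraries kept. GNPDA1 (chr5:142000671-142013027, reverse strand) ranged from 6.33 to 14.8 TPM over the 16 libraries and GNPDA2 (chr4:44701795-44726556, reverse strand) from 9.07 to 21 TPM, and for both the highest and the lowest value lay in Day 30 RPMI/B27, the highest in replicate 1 and the lowest in replicate 3. GUF1 lies on the other strand across part of GNPDA2. The ratio of GNPDA2 to GNPDA1 averaged 1.26 ± 0.0353 (SD, n = 4) in the Day 16 libraries. At Day 30 it averaged 1.59 ± 0.137 in HPLM/B27, 1.55 ± 0.120 in RPMI_glcM/B27 and 1.41 ± 0.0434 in RPMI/B27 (SD, n = 4 each). Each Day 30 group was above Day 16 without overlap (exact permutation test, p = 0.0286 in all 3, adjusted p = 0.0464), by 1.26-fold, 1.23-fold and 1.12-fold in the same order. HPLM/B27 was above Day 30 RPMI/B27 by 1.12-fold (exact permutation test, p = 0.0286, adjusted p = 0.0464) and RPMI_glcM/B27 by 1.10-fold with overlap (exact permutation test, p = 0.0857, adjusted p = 0.101). With 1 TPM added to both genes, the comparison of HPLM/B27 with Day 30 RPMI/B27 gave an exact permutation p = 0.0571. NAGK (chr2:71068296-71079808, forward strand) ranged from 5.20 TPM in a Day 30 RPMI/B27 library to 9.37 TPM in a Day 16 library, and all groups overlapped.

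**Figure D2:**
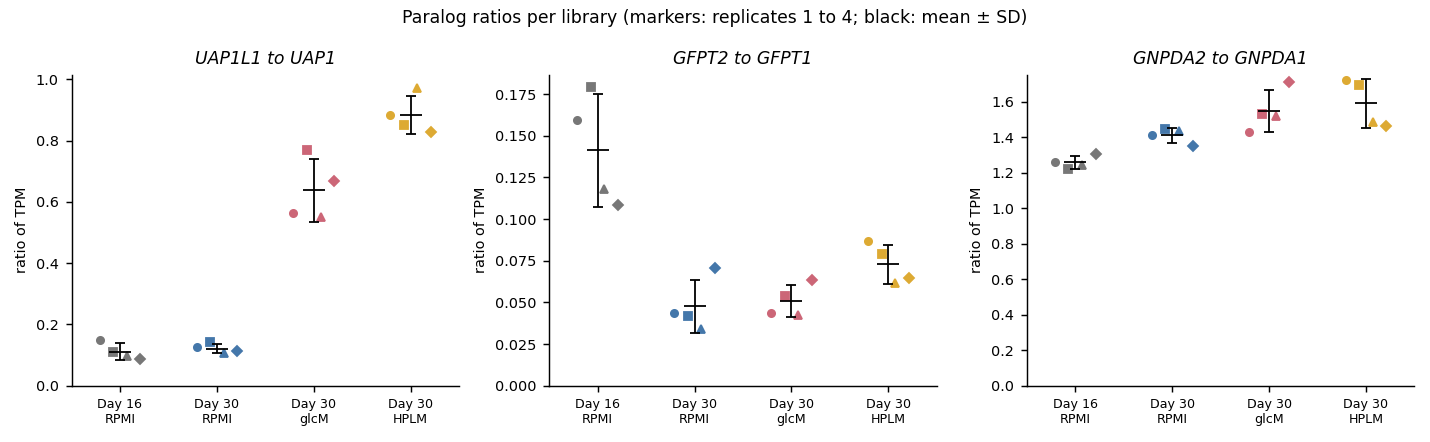
Ratio of TPM of 3 pairs of paralogs (vertical axes from 0) in each library, with replicate markers and the mean ± SD in black. UAP1L1 to UAP1 is near 0.1 in RPMI/B27 and above 0.5 in both media with 5 mM glucose, GFPT2 to GFPT1 drops after Day 16, and GNPDA2 to GNPDA1 lies between 1.22 and 1.72.

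Between Day 16 and Day 30, members were called lower and none higher, beside a general shift of the deposited TPM, and UAP1L1 is left out of the counts. In Day 30 RPMI/B27, 2 of 9 members were lower than at Day 16 and 0 higher, while 17.8% of all genes tested were lower and 2.08% higher, and after rescaling 2 were lower against 8.76% of all genes. In RPMI_glcM/B27, 3 of 9 were lower and 0 higher, against 17.8% and 3.34% of all genes, and after rescaling again 3 were lower against 13.6%. In HPLM/B27, 5 of 9 (GFPT2, GNPNAT1, PGM3, UAP1 and OGT) were lower and 0 higher, against 22.4% and 3% of all genes, and after rescaling 4 were lower against 11.9%. The median log2 fold change of the 9 members was -0.29, -0.38 and -0.52 in the 3 media, where that of all genes tested was -0.28, -0.22 and -0.29. When rescaled, the members' medians were 0.04, -0.11 and -0.20 and those of all genes 0.01 in each. UAP1, GFPT1, PGM3, GNPDA1, GNPDA2, NAGK and OGT changed sign with the scaling in Day 30 RPMI/B27, as did UAP1L1 (-0.02 and 0.16) and GNPDA2 and NAGK also in the other media.

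Between the Day 30 media, no member other than UAP1L1, which was chosen by this contrast and not tested, separated on the deposited TPM under limma. Of the 9 other members, 0 were called in RPMI_glcM/B27 against RPMI/B27 (limma, and 0 at an unadjusted p under 0.05), where 1.36% of all genes were higher and 0.837% lower. In HPLM/B27 against RPMI/B27, 0 of 9 were called (2 at an unadjusted p under 0.05), where 1.51% of all genes were higher and 0.893% lower. In HPLM/B27 against RPMI_glcM/B27, 0 of 10 were called (0 at an unadjusted p under 0.05, and 0 by limma-voom on recovered reads), where 0.0496% of all genes were higher and 0.0186% lower. After rescaling, 1 of 9 members (PGM3) was lower in RPMI_glcM/B27 than in RPMI/B27, where 5.64% of all genes were lower, and 2 of 9 (PGM3 and OGT) were lower in HPLM/B27, where 5.55% were. Limma-voom on recovered reads gave the same counts of 1 and 2. Between HPLM/B27 and RPMI_glcM/B27 rescaling called 0 of 10, against 0.602% of all genes lower. These counts rest on replicates 3 and 4 of Day 30 RPMI/B27: without them, 3 of 9 members (GFPT1, PGM3 and GNPDA1) were lower in RPMI_glcM/B27 and 7 of 9 (the same 3 with UAP1, GNPNAT1, GNPDA2 and OGT) in HPLM/B27, while 1501 and 3120 of the 16122 genes were lower. With rescaling and without these libraries, 2 of 9 (GFPT1 and PGM3) were lower in RPMI_glcM/B27 and 3 of 9 (GFPT1, PGM3 and OGT) in HPLM/B27, while 652 and 840 genes were lower.

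**Figure D3:**
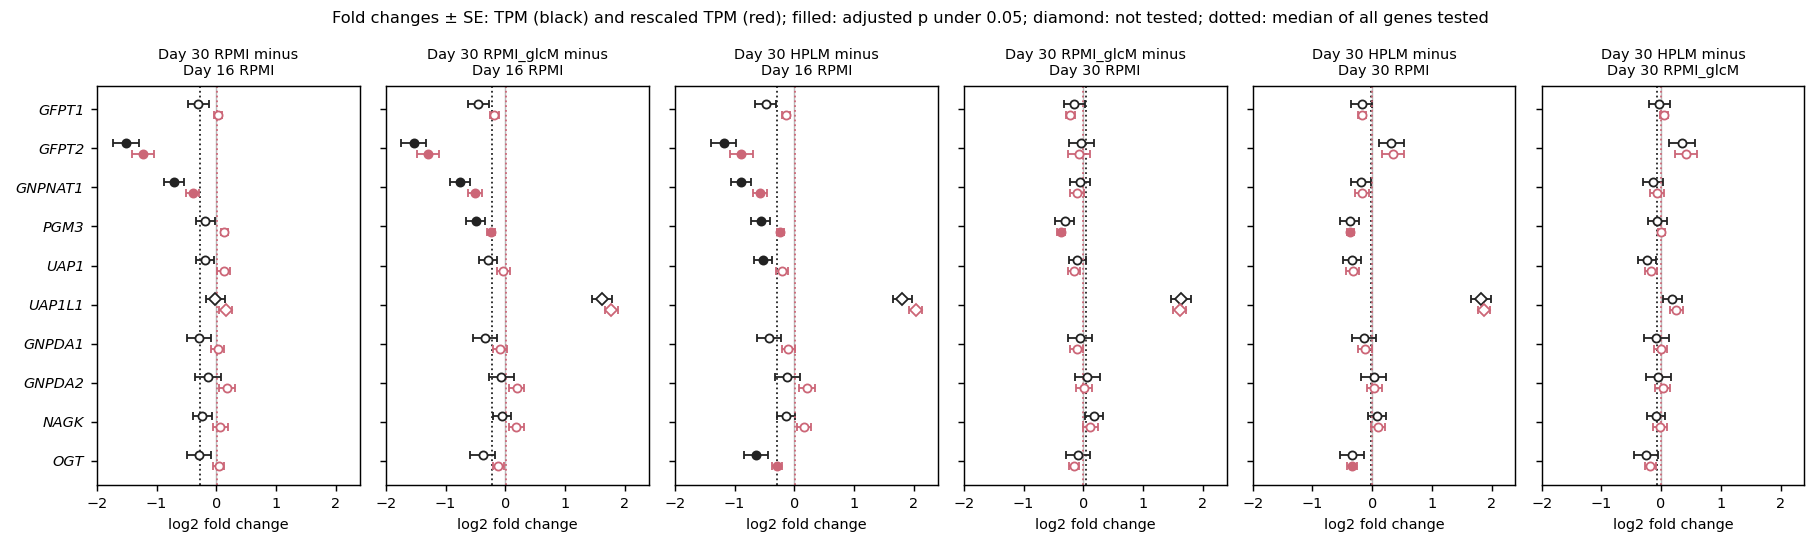
Log2 fold change ± SE (horizontal axes) of the 10 genes in the 6 comparisons, from deposited TPM (black) and rescaled TPM (red). Filled points passed the test, diamonds mark UAP1L1 where it was not tested, and dotted lines are the median of all genes, which lies near -0.3 for the deposited TPM against Day 16 and near 0 when rescaled. UAP1L1 lies between 1.62 and 2.03 in the 4 comparisons of a medium with 5 mM glucose with RPMI/B27.

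Around the 10 members, 44 further genes of supply, use and control were read, of which 41 were tested. Against Day 16, on the deposited TPM, 12 of these 41 were lower and 0 higher in Day 30 RPMI/B27 (17.8% of all genes lower), 15 lower and 1 higher in RPMI_glcM/B27 (17.8% lower), and 15 lower and 1 higher in HPLM/B27 (22.4% lower). After rescaling, the counts were 6 lower and 0 higher (all genes 8.76% lower and 8.76% higher), 12 lower and 4 higher (13.6% and 14%), and 10 lower and 6 higher (11.9% and 13.4%). In RPMI_glcM/B27 against Day 30 RPMI/B27, 3 were higher and 0 lower (all genes 1.36% higher and 0.837% lower). In HPLM/B27 against Day 30 RPMI/B27, 2 were higher and 1 lower (all genes 1.51% higher and 0.893% lower). Between HPLM/B27 and RPMI_glcM/B27, 0 differed (limma, 3 at an unadjusted p under 0.05), where 0.0496% of all genes were higher and 0.0186% lower. After rescaling, the comparison with Day 30 RPMI/B27 called 7 higher and 4 lower for HPLM/B27 (all genes 7.43% higher and 5.55% lower) and 6 higher and 4 lower for RPMI_glcM/B27 (all genes 6.46% higher and 5.64% lower), and HPLM/B27 against RPMI_glcM/B27 called 0 (all genes 0.992% higher and 0.602% lower).

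On the side of supply, HK2, the inducible hexokinase that phosphorylates glucose, stood at 39.0, 48.2, 46.2 and 34.8 TPM at Day 16, at 24.6, 24.9, 24.8 and 19.0 TPM in Day 30 RPMI/B27, at 40.3, 53.1, 42.5 and 41.5 TPM in RPMI_glcM/B27 and at 49.4, 53.5, 74.3 and 49.0 TPM in HPLM/B27. All libraries with 5 mM glucose were above all those of Day 30 RPMI/B27 (log2 fold change 0.90 ± 0.15 (SE), limma, adjusted p = 0.0057, in RPMI_glcM/B27 and 1.23 ± 0.15, adjusted p = 0.000332, in HPLM/B27). In Day 30 RPMI/B27, 4 of the 6 supply genes were lower than at Day 16 on both scales (all genes 17.8% lower as deposited and 8.76% rescaled), namely SLC1A5, a glutamine transporter (log2 fold change -1.0), HK2 (-0.82), HK1, the constitutive hexokinase (-0.78), and GPI, which makes fructose-6-phosphate (-0.74). SLC1A5 was also lower than at Day 16 in RPMI_glcM/B27 (-1.30 ± 0.18, adjusted p = 0.000111) and in HPLM/B27 (-1.34 ± 0.18, adjusted p = 8.33e-05). GLUL, which makes glutamine, was higher in RPMI_glcM/B27 than in Day 30 RPMI/B27 (1.02 ± 0.25, adjusted p = 0.0444), with 16.8 to 21.7 TPM against 5.16 to 13.0 TPM, and this call was lost in 6 of the 8 fits that left out a library. In HPLM/B27 GLUL stood at a similar 13.8 to 22.5 TPM, although its difference from Day 30 RPMI/B27 was not called on the deposited TPM. After rescaling, 3 of the 6 supply genes were higher in RPMI_glcM/B27 than in Day 30 RPMI/B27 and 4 in HPLM/B27, with 0 lower (all genes 6.46% and 7.43% higher). GPI stood at 25.8 to 39.7 TPM in Day 30 RPMI/B27, 42.3 to 56.4 TPM in RPMI_glcM/B27 and 41.4 to 54.2 TPM in HPLM/B27. HK1 stood at 70.4 to 116, 98.1 to 132 and 132 to 142 TPM in the same order. Neither was called between these media on the deposited TPM.

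**Figure D4:**
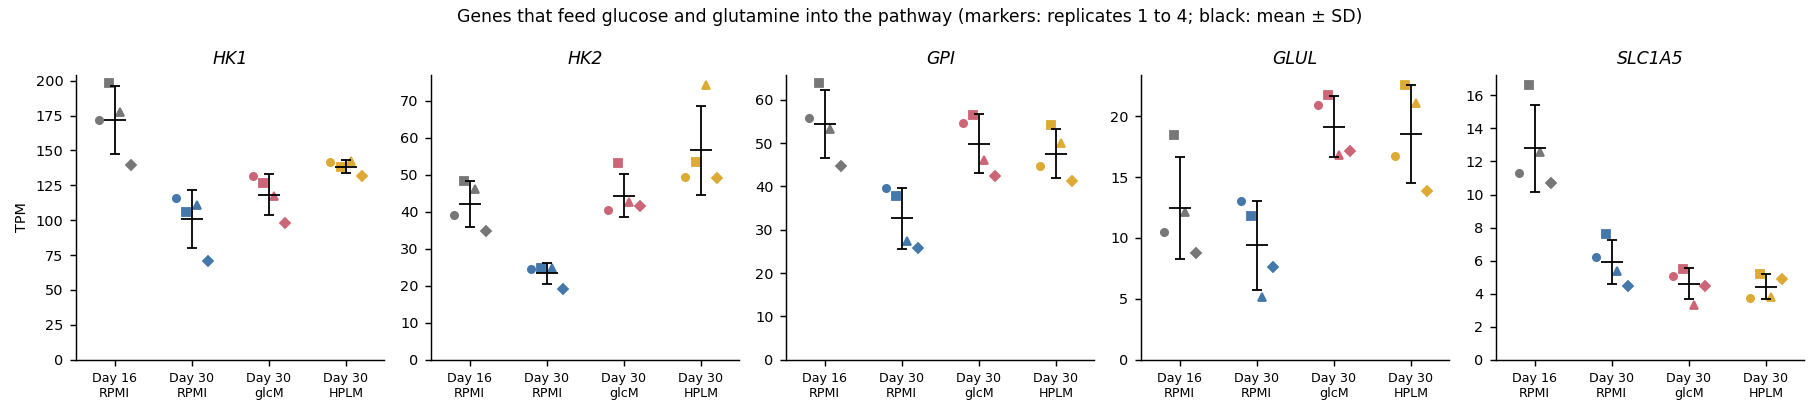
TPM of 5 genes of glucose and glutamine supply (vertical axes from 0) in each library, with replicate markers and the mean ± SD in black. HK2 lies at 19.0 to 24.9 TPM in Day 30 RPMI/B27 and at 40.3 to 74.3 TPM in the other Day 30 media, while SLC1A5 is lower at Day 30 than at Day 16 in all media.

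Among the genes of use, HAS2, a hyaluronan synthase that consumes UDP-GlcNAc, was at 14.9 to 23.2 TPM at Day 16 and at 1.26 to 2.83 TPM over the 12 Day 30 libraries. Its log2 fold change to Day 16 was -2.74 ± 0.19 (SE; limma, adjusted p = 3.61e-07) in RPMI/B27, -2.83 ± 0.19 (adjusted p = 1.31e-07) in RPMI_glcM/B27 and -2.93 ± 0.19 (adjusted p = 7.25e-08) in HPLM/B27, and HAS1 and HAS3 were under the filter. UGDH, which draws UDP-glucose into glucuronic acid, the other sugar of hyaluronan, was lower than at Day 16 by -0.60, -0.97 and -1.04 in the same order, with the first lost on rescaling (-0.29, adjusted p = 0.0582). OGA, which removes O-GlcNAc, was lower than at Day 16 in HPLM/B27 (-1.26 ± 0.25, adjusted p = 0.00187) and in RPMI_glcM/B27 (-0.74 ± 0.25, adjusted p = 0.043), the latter lost under 10 of 17 alternatives. EOGT, which places O-GlcNAc on extracellular domains, was lower in all 3 (-0.54, -0.64 and -0.51), with the first and the last lost on rescaling. Of the 9 genes of N-glycan assembly, 2 were lower than at Day 16 in RPMI/B27 and 4 in each of the other media, with 0 higher, and after rescaling 2 for HPLM/B27, 3 for RPMI_glcM/B27 and 1 for RPMI/B27 (all genes 17.8% to 22.4% lower as deposited and 8.76% to 13.6% rescaled). MGAT3 and MGAT4B, which add N-acetylglucosamine to N-glycans, were called in each medium. The log2 fold changes (RPMI/B27 first, HPLM/B27 last) were -0.50, -0.73 and -0.76 for MGAT3 and -0.74, -0.54 and -0.58 for MGAT4B. Rescaling ended the call of MGAT3 in RPMI/B27 (limma, adjusted p = 0.159), while that of MGAT4B in RPMI_glcM/B27 was lost under 7 of 17 alternatives.

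Among the genes of amino sugar salvage and breakdown, CTBS, a lysosomal glycosidase, was lower than at Day 16 in both media with 5 mM glucose (-0.66 for RPMI_glcM/B27 and -0.77 for HPLM/B27) and in HPLM/B27 than in Day 30 RPMI/B27 (-0.68, adjusted p = 0.0423), the last lost in 6 of the 8 fits that left out a library. CTBS averaged 8.75 TPM in RPMI_glcM/B27, 8.01 TPM in HPLM/B27 and 13.7 TPM in Day 30 RPMI/B27. RENBP, an N-acetylglucosamine epimerase, was higher (0.85, adjusted p = 0.0386) in RPMI_glcM/B27 than at Day 16, a call lost under 8 of 16 alternatives. It averaged 2.41 TPM at Day 16, 4.77 TPM in RPMI_glcM/B27 and 4.56 TPM in HPLM/B27. CTBS in RPMI_glcM/B27 against Day 30 RPMI/B27 and RENBP in HPLM/B27 against Day 16 were not called on the deposited TPM. In the UDP-glucose branch, PGM1 was lower in Day 30 RPMI/B27 than at Day 16 (-0.48, rescaled -0.14 with adjusted p = 0.0772) and higher in RPMI_glcM/B27 than in Day 30 RPMI/B27 (0.62, adjusted p = 0.0305), a call lost without replicates 3 and 4 of Day 30 RPMI/B27 (0.36, adjusted p = 0.0722) but not when these were left out and the rest rescaled (0.61, adjusted p = 0.000134). PGM1 averaged 89.3 TPM in RPMI_glcM/B27, 79.1 TPM in HPLM/B27 and 58.6 TPM in Day 30 RPMI/B27. The difference of HPLM/B27 from Day 30 RPMI/B27 was not called on the deposited TPM. UGP2 and PGM2 were lower than at Day 16 in both media with 5 mM glucose, UGP2 by -0.68 and -0.55, which rescaling did not keep, and PGM2 by -0.80 and -0.81, which it did. Of 5 stress-linked regulators, DDIT3, a factor of the unfolded protein and amino acid responses, was higher in HPLM/B27 than in Day 30 RPMI/B27 (0.93, adjusted p = 0.0493) and than at Day 16 (0.70, adjusted p = 0.0414). The first of these calls was lost without replicates 3 and 4 of Day 30 RPMI/B27 (0.53, adjusted p = 0.131) but not with rescaling as well (0.84, adjusted p = 0.0219), and the second was lost in 6 of the 8 fits that left out a library. DDIT3 averaged 24.2 TPM in HPLM/B27, a similar 22.7 TPM in RPMI_glcM/B27 and 12.5 TPM in Day 30 RPMI/B27. In RPMI_glcM/B27 it was not called on the deposited TPM. ATF6, an endoplasmic reticulum stress sensor, was lower than at Day 16 in both media with 5 mM glucose (-0.55, lost in 7 of the 8 fits that left out a library, and -0.69), and HSPA5, a chaperone it controls, in RPMI/B27 and HPLM/B27 (-0.85 and -0.81, both lost on rescaling).

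Markers of the sampled and of other cell types moved with some of these results. The 10 cardiomyocyte markers, TNNT2 among them, summed to between 14205 and 18945 TPM in all groups, but single markers moved both ways. Against Day 16, 2 were higher and 2 lower in RPMI/B27, 3 and 3 in RPMI_glcM/B27 and 2 and 3 in HPLM/B27. After rescaling, these counts were 3 and 2, 5 and 1, and 4 and 2. MYH6 averaged 2130 TPM at Day 16 and 746, 962 and 658 TPM at Day 30 in that order. TNNT2 averaged 2932 TPM at Day 16 and 4236, 3827 and 3723 TPM at Day 30. The 10 fibroblast markers summed to 545 to 922 TPM at Day 16, 229 to 439 TPM in Day 30 RPMI/B27, 178 to 245 TPM in RPMI_glcM/B27 and 234 to 283 TPM in HPLM/B27. FN1 made up most of that difference, with a mean of 399 TPM at Day 16 and 110, 70.4 and 104 TPM at Day 30 in the same order. Of the 8 fibroblast markers tested, 4, 6 and 5 were lower than at Day 16 in these media and 0 higher, and after rescaling 3, 6 and 5 were lower and 1, 1 and 0 higher, the higher one being POSTN. Of all genes, 17.8%, 17.8% and 22.4% were lower than at Day 16 and 2.08%, 3.34% and 3% higher. After rescaling, 8.76%, 13.6% and 11.9% were lower and 8.76%, 14% and 13.4% higher. These shares apply to every marker list compared with Day 16 here. The 10 hepatic endoderm markers summed to 432 to 767 TPM at Day 16, 321 to 565 TPM in Day 30 RPMI/B27, 91.9 to 210 TPM in RPMI_glcM/B27 and 68.5 to 206 TPM in HPLM/B27. Of the 8 hepatic markers tested, 5 were lower and 1 (ALB) higher than at Day 16 already in Day 30 RPMI/B27, where the log2 difference of UAP1L1 from Day 16 was -0.02, and 7 were lower and 1 higher in each medium with 5 mM glucose. Against Day 30 RPMI/B27, 6 of the 8 were lower in each of these media, the libraries in which UAP1L1 was higher. Of all genes, 0.837% were lower for RPMI_glcM/B27 and 0.893% for HPLM/B27. After rescaling, 6 and 7 hepatic markers were lower, against 5.64% and 5.55% of all genes. Lower values were not limited to this list. Of the 8 fibroblast markers tested, 1 and 1 were lower than in Day 30 RPMI/B27, and 5 and 4 after rescaling. Of the 4 smooth muscle markers tested, these counts were 1 and 0, and 1 and 1 after rescaling. The 6 smooth muscle markers summed to 395 to 855 TPM at Day 16 and, at Day 30, to 244 to 950 TPM in RPMI/B27, 265 to 352 TPM in RPMI_glcM/B27 and 301 to 508 TPM in HPLM/B27, with MYH11 listed at 0 in all 16 libraries. Of the 4 tested, 2, 3 and 3 were lower than at Day 16 in these media and 0 higher. After rescaling, 0, 1 and 1 were lower and 0 higher. The 8 endothelial markers summed to 43.0 to 55.4, 14.4 to 33.1, 16.6 to 26.1 and 19.8 to 31.8 TPM, with VWF listed at 0 in each group but HPLM/B27. The part of other cells in the changes of GFPT2, GNPNAT1, HAS2 and UAP1L1 was not tested.

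Among 6833 genes that averaged 10 TPM or more, those whose log2(TPM + 1) followed UAP1L1 most closely over the 16 libraries were FABP3, a fatty acid binding protein of heart muscle (Pearson r = 0.956), CKM, the muscle creatine kinase (r = 0.949), ESRRA, a nuclear receptor of mitochondrial genes (r = 0.945), MPC1, a subunit of the mitochondrial pyruvate carrier (r = 0.943), and C11orf21 (r = 0.939). The most opposed were RPL28, a ribosomal protein (r = -0.964), HNRNPH3, an RNA-binding protein (r = -0.934), TXNIP, a glucose-induced inhibitor of glucose uptake (r = -0.926), RTF1, a transcription elongation factor (r = -0.920), and IFITM3, an antiviral membrane protein (r = -0.918). These values describe 16 libraries in 4 groups that share medium and scaling, and a gene with any steady difference between the glucose levels would score high. The filter used the mean over all 16 libraries, which C11orf21 and ESRRA reached only through the media with 5 mM glucose and TXNIP only through RPMI/B27. C11orf21 averaged 1.33 TPM at Day 16, 3.16 TPM in Day 30 RPMI/B27, 16.8 TPM in RPMI_glcM/B27 and 21.6 TPM in HPLM/B27. ESRRA stood at 6.05 to 8.83 TPM in Day 30 RPMI/B27, 13.5 to 16.4 TPM in RPMI_glcM/B27 and 15.8 to 16.7 TPM in HPLM/B27. TXNIP stood at 57.5 to 243 TPM in Day 30 RPMI/B27, 2.45 to 5.55 TPM in RPMI_glcM/B27 and 2.55 to 6.16 TPM in HPLM/B27. For the other 9 members, r with UAP1L1 ran from -0.627 for PGM3 to 0.108 for NAGK on the deposited TPM and from -0.842 for PGM3 to 0.392 for NAGK when rescaled.

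**Figure D5:**
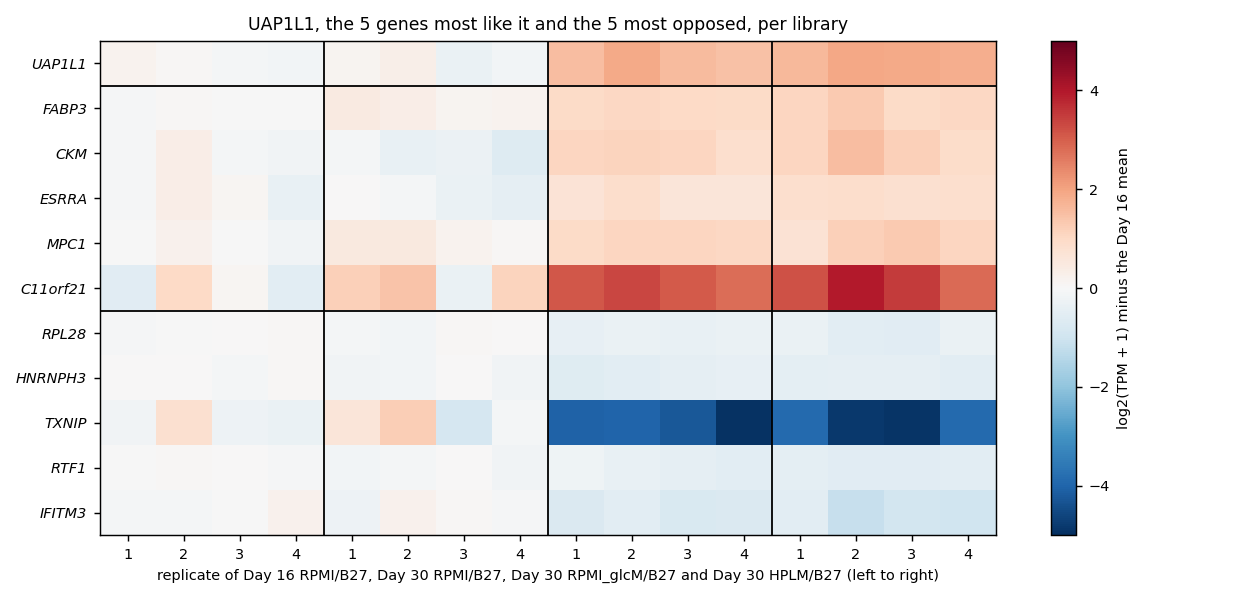
Log2(TPM + 1) minus the Day 16 mean (colour scale) for UAP1L1, the 5 genes with the highest and the 5 with the lowest correlation with it, in each of the 16 libraries. UAP1L1 and the first 5 are higher and the last 5 lower in the 8 libraries with 5 mM glucose, and TXNIP shows the widest drop.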

How the data were processed

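RNA of 16 wells of WTC11 hPSC-CMs was read by bulk RNA-seq with a stranded total RNA kit. Per the study's methods and the processing notes, reads were aligned with STAR 2.5.3a to hg38 and counted with featureCounts 2.0.3, and R 4.1.3 was used. The authors deposited a table of TPM per gene and library; the annotation, gene lengths and tool behind the TPM are not given in the sources used here. Groups were taken from the labels, and 0 columns of values were left unused. Whole reads were recovered from the steps of the TPM for all 31047 genes above 0, within 0.02 reads.

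The 16122 genes that averaged 1 TPM or more entered a linear model (R 4.3.3, limma 3.58.1, empirical Bayes with a mean trend) on log2(TPM + 1) over all 4 groups. The 6 comparisons were adjusted by Benjamini-Hochberg, and an adjusted p under 0.05 was called. Log2 fold changes of this fit are differences of log2(TPM + 1). The added 1 TPM makes them smaller in size than the log2 ratio of TPM for genes of few TPM, such as UAP1L1 and GFPT2. SE is limma's moderated standard error. For ratios of paralogs, the log2 ratio was tested by exact permutation, two-sided (70 divisions of 8 libraries), adjusted over 13 tests. Rescaled TPM was divided by median-of-ratios factors over genes. Where nothing places wells in separate cultures or differentiations, p-values measure the spread between wells. Counting limits are those of 7744768 to 16183655 reads per library, where 1 read on a transcript of 1 kb is worth 0.139 to 0.314 TPM.

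The members and lists were chosen with earlier results of these data known. Named were all 10 members, up to 4 called genes with the smallest adjusted p of each further list, and the 5 genes with the highest and the 5 with the lowest correlation with UAP1L1. The fit was tested on simulated data for HPLM/B27 against Day 30 RPMI/B27, where 188 of 200 genes changed by 1.5 (log2) were recovered with 6 false calls among 16699 genes. The simulation gave all libraries the Day 16 profile and a fixed spread, without the shift seen in replicates 3 and 4 of Day 30 RPMI/B27. It therefore checks the code and does not gauge recovery or false calls in these data. Promoters and gene positions are from RefSeq (GRCh38.p14). Protein sequences were not used here, and some genes of the further lists, although counted, are not reported here by name. Python 3.11.15, numpy 2.4.6, pandas 2.3.3, scipy 1.17.1 and matplotlib 3.10.9 were used for the rest. Alternatives were the pseudocount, the filter, the scaling, limma-voom on recovered reads, the level of RNR1 as a covariate, a replicate block and leaving out libraries; the omission of replicates 3 and 4 of Day 30 RPMI/B27, with and without rescaling, and a ratio of recovered reads were added after seeing the data.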

Additional observations from a re-analysis of the deposited data

Results flagged for a closer look

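UAP1 at Day 16 had a library apart: replicate 1 stood at 10.8 TPM and the other 3 at 12.3 to 12.4 TPM, so that the gap was 0.906 of the range of the group, above Dixon's critical value for 4 samples. It was 1 of 52 groups of 4 examined, and chance alone sets apart about 1 group in 20.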

How the results depend on the processing

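UAP1L1 kept its gap between media with 5 mM glucose and RPMI/B27, and GFPT2 its fall from Day 16, under the alternatives that held them. The filter at 5 TPM left both genes out. Counts of members called moved as follows. For RPMI/B27 against Day 16 (2 called), 1 was called with a filter at 5 TPM, where GFPT2 was not tested and GNPNAT1 stayed called. The call of GNPNAT1 was lost, leaving 1, with only the groups compared, with RNR1 as a covariate and without replicates 3 and 4 of Day 30 RPMI/B27. Of all genes, 2867 of 16122 were lower in the main fit and, in that order, 2373 of 9753, then 839, 888 and 860 of 16122. For RPMI_glcM/B27 against RPMI/B27 (0 called, 135 of 16122 genes lower), rescaling and limma-voom each called 1. Leaving out those libraries called 3, and leaving them out with rescaling 2. Of all genes, 910 were lower with rescaling, 916 of 15423 with limma-voom, 1501 without those libraries and 652 with both. For HPLM/B27 against RPMI/B27 (0 called), 1 was called without mitochondrial, ribosomal RNA and RN7SK genes, 2 with rescaling, limma-voom or RNR1 as a covariate, 7 without those libraries and 3 with rescaling as well. Of all genes, 144 of 16122 were lower in the main fit. In the order of the settings named, 504 of 16091, 894 of 16122, 1151 of 15423, and 776, 3120 and 840 of 16122 were lower. The cause was not tested. Leaving out 1 library at a time gave 2 to 2, 2 to 3 and 2 to 6 members called against Day 16 and 0 to 0 in the other 3 comparisons, with OGT and PGM3 the calls most often lost. With 1 TPM added, the GNPDA2 to GNPDA1 ratio of HPLM/B27 over RPMI/B27 was 0.16 (log2, exact permutation p = 0.0571).

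Signs of log2 differences changed only for values that had not passed the test. UAP1L1, not tested, was near 0 in RPMI/B27 against Day 16 and ran from -0.12 to 0.27 there over the alternatives. For the other members the changes were these. With rescaling, the sign changed to GFPT1 0.030, PGM3 0.13, UAP1 0.12, GNPDA1 0.020, GNPDA2 0.17, NAGK 0.065 and OGT 0.038 for RPMI/B27 against Day 16, GNPDA2 0.19 and NAGK 0.18 for RPMI_glcM/B27 against Day 16, GNPDA2 0.21 and NAGK 0.16 for HPLM/B27 against Day 16, GFPT1 0.047, PGM3 0.0057 and GNPDA2 0.026 for HPLM/B27 against RPMI_glcM/B27. Without mitochondrial, ribosomal RNA and RN7SK genes, the sign changed to GNPDA2 0.043 for RPMI/B27 against Day 16, GNPDA2 0.078 and NAGK 0.084 for RPMI_glcM/B27 against Day 16, GNPDA2 0.093 and NAGK 0.050 for HPLM/B27 against Day 16, GFPT1 0.035 and GNPDA2 0.015 for HPLM/B27 against RPMI_glcM/B27. With limma-voom, the sign changed to GFPT1 0.026, PGM3 0.14, UAP1 0.12, GNPDA1 0.0040, GNPDA2 0.18, NAGK 0.081 and OGT 0.036 for RPMI/B27 against Day 16, GNPDA2 0.19 and NAGK 0.22 for RPMI_glcM/B27 against Day 16, GNPDA2 0.23 and NAGK 0.19 for HPLM/B27 against Day 16, GFPT1 0.045, PGM3 0.00505 and GNPDA2 0.042 for HPLM/B27 against RPMI_glcM/B27. With RNR1 as a covariate, the sign changed to PGM3 0.049, GNPDA2 0.12 and OGT 0.087 for RPMI/B27 against Day 16, GNPDA2 0.082 and NAGK 0.065 for RPMI_glcM/B27 against Day 16, GNPDA2 0.016 for HPLM/B27 against Day 16, GNPDA2 -0.041 for RPMI_glcM/B27 against RPMI/B27, GNPDA2 -0.11 and NAGK -0.018 for HPLM/B27 against RPMI/B27. Without replicates 3 and 4 of Day 30 RPMI/B27, the sign changed to GFPT1 0.095, PGM3 0.16, UAP1 0.051, GNPDA1 0.16, GNPDA2 0.34 and OGT 0.14 for RPMI/B27 against Day 16, GNPDA2 -0.41 for RPMI_glcM/B27 against RPMI/B27, GNPDA2 -0.46 and NAGK -0.030 for HPLM/B27 against RPMI/B27. With rescaling and without these libraries, the sign changed to GFPT1 0.12, PGM3 0.18, UAP1 0.072, GNPDA1 0.18, GNPDA2 0.36 and OGT 0.16 for RPMI/B27 against Day 16, GNPDA2 -0.17 for RPMI_glcM/B27 against RPMI/B27, GNPDA2 -0.15 for HPLM/B27 against RPMI/B27. Leaving out 1 library at a time changed a sign among values that had not passed the test, for RPMI/B27 against Day 16 GNPDA2 (-0.33 to 0.041), for RPMI_glcM/B27 against Day 16 NAGK (-0.14 to 0.036), for RPMI_glcM/B27 against RPMI/B27 GFPT1 (-0.30 to 0.0025), GFPT2 (-0.22 to 0.058), GNPNAT1 (-0.25 to 0.046), GNPDA1 (-0.24 to 0.14), GNPDA2 (-0.11 to 0.26), OGT (-0.25 to 0.080) and GFPT2 to GFPT1 (-0.010 to 0.34), for HPLM/B27 against RPMI/B27 GNPDA1 (-0.31 to 0.056), GNPDA2 (-0.16 to 0.22) and NAGK (-0.015 to 0.15), for HPLM/B27 against RPMI_glcM/B27 GFPT1 (-0.10 to 0.022), GNPDA2 (-0.14 to 0.045) and GNPDA2 to GNPDA1 (-0.0027 to 0.087).

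Replicate numbers are shared between groups, and the labels do not say whether they pair the wells. Same-numbered libraries deviated together, with a correlation over 0.1, in 11 of 24 pairs (median correlation 0.080). Among pairs with different numbers this held in 12 of 72 (median -0.034), a lower share. The main fit did not use the numbers as pairs, and a pairing of the wells was not settled by these values. With a replicate block the members called were 2, 4 and 6 against Day 16 and 0 in the other comparisons, with GFPT1 added in RPMI_glcM/B27 (adjusted p = 0.0354) and in HPLM/B27 (adjusted p = 0.0231), and for the ratios the smallest p a block of 4 allows is 0.125. All genes called rose as well: 4292, 3820 and 4906 of 16122 were lower than at Day 16, against 2867, 2862 and 3605 in the main fit. In the other comparisons the block called 251, 308 and 25 genes lower and 470, 424 and 23 higher.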
